A study of Mus musculus with 22 samples.

Results

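The mouse genome holds 4 clusters of Hox genes, and 38 of their genes are described here out of the 22208 protein-coding genes annotated on chromosomes 1 to 19 and X. They were chosen by name and position: HoxA on chromosome 6 (10 genes), HoxB on chromosome 11 (10 genes), HoxC on chromosome 15 (9 genes) and HoxD on chromosome 2 (9 genes), each with 50 kb on either side of its first and last listed gene. The rule uses no measured value, although it was set with earlier results of these data known. On build mm9 the windows were chr6:52062350-52260874, chr11:96005630-96279570, chr15:102701534-102917274 and chr2:74456367-74653200, 885 kb in all.

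The study mapped proteins on chromatin by chromatin immunoprecipitation and sequencing (ChIP-seq) in MC3T3-E1, an immortal mouse line of bone-forming precursor cells derived from newborn skull vault. The cells were taken either undifferentiated or after 15 days of osteogenic culture, and in both states were treated for 3 h with ethanol vehicle or with 100 nM of 1,25-dihydroxyvitamin D3 (calcitriol), the hormonal form of vitamin D. Antibodies were directed at the vitamin D receptor VDR, its partner RXR, C/EBPβ and RUNX2, and at the histone marks H4K5ac, H3K9ac, H3K4me1, H3K4me3 and H3K36me3. Only VDR and RXR have a vehicle list here, so all 10 histone lists and those of C/EBPβ and RUNX2 come from calcitriol-treated cells, and no effect of the hormone on a histone mark could be described. Each of the 22 combinations was represented by 1 list of called regions, which leaves no measure of variation from culture to culture. No test was made; shares over all genes stand beside the counts. Differentiated cultures were also homogenized and spun through sucrose before the ChIP, so that preparation and state cannot be told apart in any difference between the states.

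Hox genes encode homeodomain transcription factors that give cells along the body axis and the limbs their position. Genes of each cluster lie in an order that matches where and when they are used, from paralog group 1 at the head side to group 13 at the tail and limb-tip side, and all of them are read in the same direction within a cluster. Hox proteins bind DNA together with partner proteins of other homeodomain classes. Polycomb complexes hold silent Hox genes under H3K27me3, a mark not analysed here, and trithorax complexes keep active ones marked with H3K4me3. Bone of the limbs, ribs and vertebrae takes its shape under Hox control, whereas the skull vault forms largely in front of the Hox domains. Of the marks measured, H3K9ac and H3K4me3 are typical of active starts, H3K4me1 and H4K5ac extend over enhancers as well, and H3K36me3 covers transcribed gene bodies.

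Factor lists held between 274 and 17950 sites and histone lists between 6983 and 53858 regions; read depth is unknown, and a longer list cannot be told apart from deeper sequencing. Of 10 osteoblast markers, 6 had H3K9ac over a start in undifferentiated and 7 in differentiated cells, among them Runx2, Sp7 and Col1a1. The shares over all genes were 49.7% and 51.5%. Ibsp and Dmp1 lacked H3K9ac in both states and Alpl in undifferentiated cells. Bglap had none of the 5 marks in either state. None of the 5 muscle markers had any mark over a start. Of the 5 blood markers, Csf1r alone was marked (H4K5ac and H3K4me1, undifferentiated), and of the 5 neuron markers Tubb3 alone. Chondrocyte genes were marked more often: 3 of the 5, Sox9, Col2a1 and Comp, had H3K9ac in both states. Of the others, Acan had none of the 5 marks in either state, and Col9a1 had H4K5ac alone, in undifferentiated cells. H3K4me3 was over 2 of the 5 in undifferentiated cells (Sox9 and Col2a1) and 1 in differentiated cells (Sox9). Adipocyte genes had no H3K4me3, and Cebpa alone among those 5 had H3K9ac. H4K5ac, however, was over a start of 3 of the 5 in each state. H3K4me1 was over 3 in undifferentiated and 2 in differentiated cells.

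Factor sites in the windows fell into 15 separate loci, 6 at HoxA, 6 at HoxB, 2 at HoxC and 1 at HoxD, built from 40 called sites of one fixed width. VDR, which binds DNA as a pair with RXR, was called at 3 of them, RXR at 7, C/EBPβ at 5 and RUNX2 at 9. The letters of the sites on which the description turns follow, on the plus strand of mm9 and 5′ to 3′, with the motif match in capitals: the 3 VDR sites, 2 C/EBPβ sites called in both states, and RUNX2 sites of HoxB and HoxD. A direct repeat is 2 copies in tandem of the half-site AGGTCA, in which G may stand for the first base and T for the third, and DR3 and DR4 name repeats with 3 and 4 spacer bases, at most 1 mismatch allowed. The RUNX motif was TGTGGTT, in which C may stand for the third base and for the last, and the C/EBP motif was TTACNNAA or TTGCNNAA, without mismatch. Both strands were searched, so a match on the minus strand is seen below as its complement.
VDR near Hoxa4, chr6:52139403-52139603, DR4 match: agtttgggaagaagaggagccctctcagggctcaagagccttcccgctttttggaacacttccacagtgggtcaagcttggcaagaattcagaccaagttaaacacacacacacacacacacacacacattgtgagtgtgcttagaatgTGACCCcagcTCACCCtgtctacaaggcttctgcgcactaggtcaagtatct
VDR upstream of Hoxb9, chr11:96127325-96127525, DR3 match: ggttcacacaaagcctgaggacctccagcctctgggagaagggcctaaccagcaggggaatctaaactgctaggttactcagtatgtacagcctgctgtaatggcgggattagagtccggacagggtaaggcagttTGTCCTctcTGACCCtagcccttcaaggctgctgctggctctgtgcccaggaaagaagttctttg
VDR beyond Hoxb1, chr11:96274952-96275152, RUNX match: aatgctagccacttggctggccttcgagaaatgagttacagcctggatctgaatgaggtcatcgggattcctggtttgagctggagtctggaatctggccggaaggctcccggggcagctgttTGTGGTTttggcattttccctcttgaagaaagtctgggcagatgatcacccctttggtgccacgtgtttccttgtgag
C/EBPβ beyond Hoxa2, chr6:52100999-52101199, C/EBP match: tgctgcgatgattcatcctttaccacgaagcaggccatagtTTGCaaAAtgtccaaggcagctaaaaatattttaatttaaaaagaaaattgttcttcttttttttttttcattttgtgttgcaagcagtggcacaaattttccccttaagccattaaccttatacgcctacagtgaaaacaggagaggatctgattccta
C/EBPβ upstream of Hoxb9, chr11:96121610-96121810, C/EBP match: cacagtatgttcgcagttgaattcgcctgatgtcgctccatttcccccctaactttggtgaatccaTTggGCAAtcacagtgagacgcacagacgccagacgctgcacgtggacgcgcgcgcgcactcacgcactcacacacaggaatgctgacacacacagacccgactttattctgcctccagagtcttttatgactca
RUNX2 in Hoxb3, chr11:96195584-96195784, RUNX match: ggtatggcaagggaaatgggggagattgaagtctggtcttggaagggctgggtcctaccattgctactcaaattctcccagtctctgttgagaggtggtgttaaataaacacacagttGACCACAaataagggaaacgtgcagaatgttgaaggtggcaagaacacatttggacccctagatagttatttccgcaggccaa
RUNX2 upstream of Hoxd8, chr2:74540344-74540544, RUNX match: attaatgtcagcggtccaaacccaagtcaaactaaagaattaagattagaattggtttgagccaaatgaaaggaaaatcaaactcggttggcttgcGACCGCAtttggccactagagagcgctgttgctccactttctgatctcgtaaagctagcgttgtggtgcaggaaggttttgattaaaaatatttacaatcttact

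The 3 VDR sites were all called in undifferentiated cells with calcitriol, and each coincided with RXR. The first lay within an intron of the annotated Hoxa3 gene, whose long transcript spans Hoxa4 to Hoxa6, with its locus centred 2.18 kb downstream of the Hoxa4 start. RXR was called there in all 4 of its lists, with and without hormone and in both states. No DR3 match was present in this site; with the other spacings searched, a DR4 with 1 mismatch was found at chr6:52139552-52139567 on the minus strand (GGGTGAgctgGGGTCA). Among all 7000 VDR sites of that list, 14.8% had a DR3 match and 4.46% a DR4 match. The spacings other than 3 were searched after the data were seen.

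A second VDR site lay 5.35 kb upstream of Hoxb9, outside any annotated gene. Here RXR was called in undifferentiated cells with calcitriol and in none of its other 3 lists, so this was the one locus of the windows at which both receptors were called with the hormone and neither with vehicle. Its minus strand held a DR3 with 1 mismatch at chr11:96127461-96127475 (GGGTCAgagAGGACA). The third VDR site lay in the flank of HoxB, 47.5 kb beyond the start of Hoxb1 and outside any gene. RXR was called there in all 4 lists and RUNX2 in both states, and the site held TGTGGTT at chr11:96275075-96275081, with neither DR3 nor DR4 match in the VDR site. At 1 further locus a DR3 match was found without VDR: over the Hoxa7 start, where RXR was called in undifferentiated cells with vehicle and in differentiated cells with calcitriol, and RUNX2 in differentiated cells. That match, AGTTCAcgcGGGCCA at chr6:52171851-52171865 on the minus strand, also has 1 mismatch; 1.67% of the undifferentiated vehicle RXR list had a DR3 match of this kind, and 5.43% of the differentiated calcitriol list.

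No VDR site was called in the Hox windows in differentiated cells, or in either state with vehicle. Each of those lists was short: 937 and 274 sites with vehicle and 871 sites in differentiated cells with calcitriol, against 7000 in undifferentiated cells with calcitriol. None of the 3 undifferentiated VDR sites was called again in the differentiated list, and over the whole list 11.3% were. In differentiated cells with calcitriol the nearest VDR site lay 118 kb from the HoxB genes, 249.8 kb from HoxC, 1605 kb from HoxD and 4327 kb from HoxA. HoxC and HoxD had no VDR site in any list; in undifferentiated cells with calcitriol the nearest ones were 122 kb and 199 kb from their genes. VDR sites lay within 5 kb of a start of 2 Hox genes, Hoxa3 and Hoxa4, in undifferentiated cells with calcitriol (7.81% of all genes had one), and of no Hox gene in the other 3 VDR lists (3.49% undifferentiated vehicle, 1.25% differentiated vehicle, 2.03% differentiated calcitriol).

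**Figure D1:**
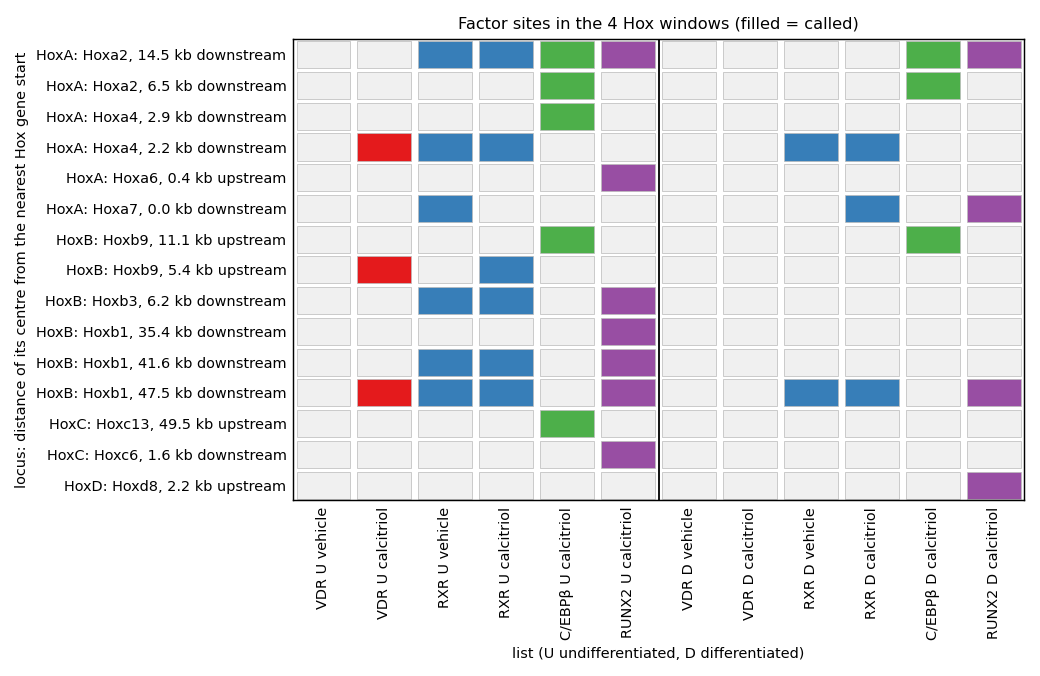
Each row is 1 of the 15 factor loci of the Hox windows, named by its distance in kb from the nearest Hox gene start, and each column is 1 of the 12 factor lists; a filled cell means that a site was called. VDR is filled in 1 column alone, undifferentiated with calcitriol, and 12 of the 15 loci belong to HoxA and HoxB.

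RXR was called 6 times in the windows in undifferentiated cells with vehicle and 6 times with calcitriol, 6.78 sites per Mb in each against 2.97 and 2.88 over chromosomes 1 to 19 and X. In differentiated cells there were 2 sites with vehicle and 3 with calcitriol, 2.26 and 3.39 per Mb against 1.82 and 3.08. All RXR sites lay at HoxA or HoxB. Of the 6 undifferentiated vehicle sites, 4 overlapped a calcitriol site (67.3% over the list), and both differentiated vehicle sites did (88.6%). With calcitriol, 2 of the 6 undifferentiated sites were called again in differentiated cells, where 61.6% of the list were. Hox genes with an RXR site within 5 kb of a start were Hoxa3, Hoxa4, Hoxa7 and Hoxa9 in undifferentiated cells with vehicle (4 genes; 10.4% of all genes) and Hoxa3 and Hoxa4 with calcitriol (9.76%). In differentiated cells they were Hoxa3 and Hoxa4 with vehicle (6.58%) and the same 4 genes as above, Hoxa3, Hoxa4, Hoxa7 and Hoxa9, with calcitriol (9.64%). The lists with 4 genes gave 10.5% of the 38, near the shares of all genes. Those with 2 genes gave 5.26%, below the 9.76% of all genes in undifferentiated cells with calcitriol. In differentiated cells with vehicle it stood against 6.58%.

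C/EBPβ, a basic leucine zipper factor of osteoblasts and fat cells, was called 6 times in undifferentiated cells (6.78 sites per Mb against 6.80 over the chromosomes) and 3 times in differentiated cells (3.39 against 6.27). Of the 6 sites, 3 were called again after differentiation (64.7% over the list). The locus with the most calls of the HoxA window, chr6:52100613-52101228, lay 14.5 kb beyond the start of Hoxa2, outside any gene. It joined 2 C/EBPβ sites of undifferentiated cells with 1 of differentiated cells, RUNX2 in both states, and RXR in undifferentiated cells with vehicle and with calcitriol. It holds TTGCaaAA at chr6:52101040-52101047 and, on the minus strand, TGTGGTT at chr6:52100747-52100753. A C/EBP match stood in 4 of the 6 undifferentiated sites and 2 of the 3 differentiated ones, against 53.3% and 56.5% of the lists. Within 5 kb of a start, C/EBPβ was called at Hoxa3 and Hoxa4 in undifferentiated cells (18.2% of all genes) and at no Hox gene in differentiated cells (15.0%).

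RUNX2, the master regulator of osteoblast identity, was called 7 times in undifferentiated cells (7.91 sites per Mb against 4.55) and 4 times in differentiated cells (4.52 against 3.00). Of the 7 sites, 2 were called again in differentiated cells, both beyond the last gene of a cluster, at Hoxa2 and Hoxb1; 43.1% of the list were. Genes with RUNX2 within 5 kb of a start were Hoxa3, Hoxa6 and Hoxc6 in undifferentiated cells (17.8% of all genes) and Hoxa7, Hoxa9, Hoxd8 and Hoxd9 in differentiated cells (9.65%). No Hox gene had one in both states, and 7.87% of all genes did. The site upstream of Hoxa6 was 0.387 kb from its start. The one in Hoxc6 lay within the gene, 1.61 kb downstream of the nearest of its 3 annotated starts. The single factor site of HoxD, RUNX2 in differentiated cells, lay 2.23 kb upstream of Hoxd8 and held the TGCGGTC match printed above. A RUNX match stood in 3 of 7 and 2 of 4 sites, against 52.5% and 55.9% of the lists.

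Of the 15 loci, 8 were called in undifferentiated cells alone, 1 in differentiated cells alone and 6 in both. All 15 touched a region of H4K5ac and one of H3K4me1 in undifferentiated cells, and 14 did in differentiated cells, the exception being the C/EBPβ site 49.5 kb upstream of Hoxc13. H3K9ac was found at 6 loci in undifferentiated and 11 in differentiated cells. H3K4me3 touched none of them in undifferentiated cells and 2 in differentiated cells, the loci downstream of Hoxa2 and upstream of Hoxa6. The same shares were not counted over all factor sites of the lists. Whether any of these counts is particular to the Hox loci was therefore not tested.

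**Figure D2:**
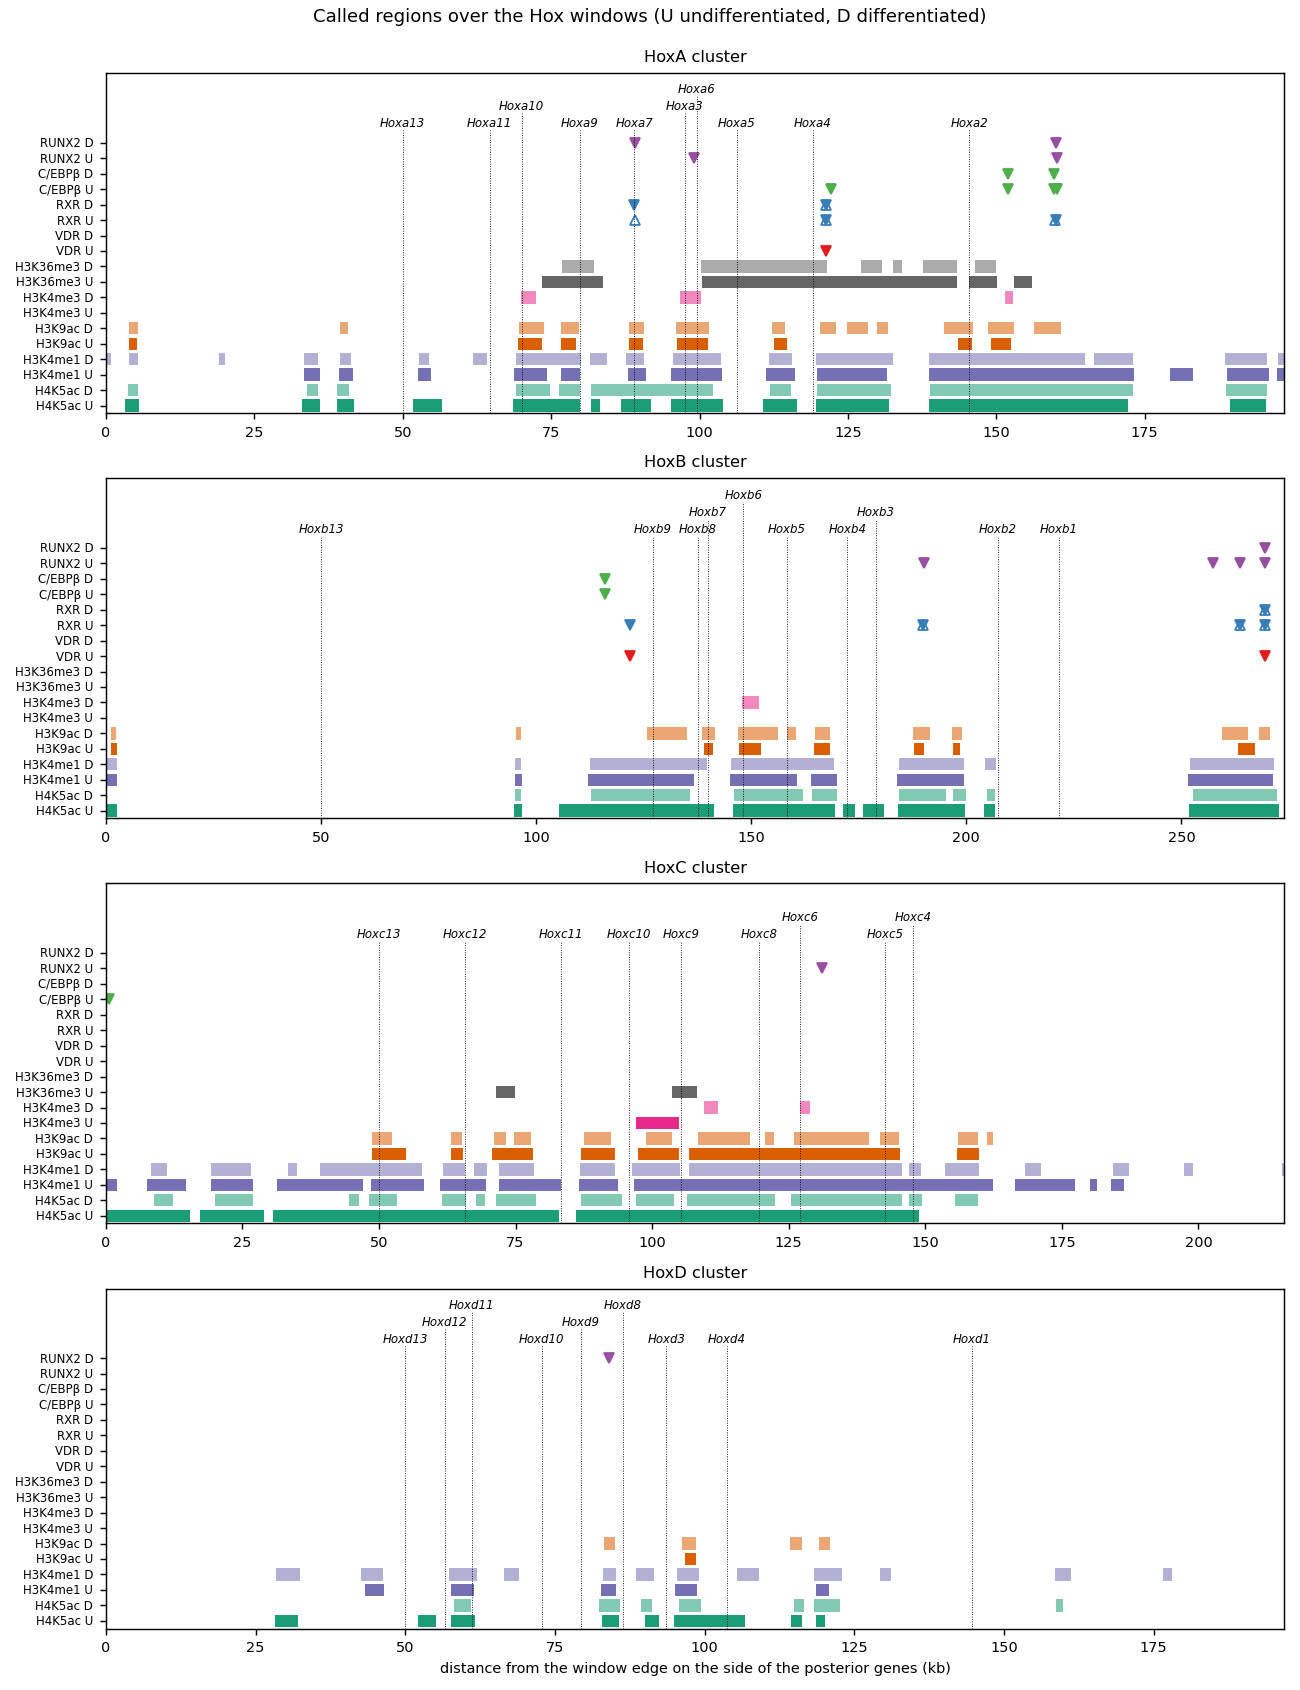
Called regions of the 5 histone marks (bars) and sites of the 4 factors (triangles; filled pointing down, calcitriol; open pointing up, vehicle) along the 4 windows, with distance in kb from the window edge on the side of group 13 and the most upstream start of each gene as a dotted line. Acetylated and H3K4me1-marked chromatin fills much of HoxC and the middle of HoxA and HoxB, and little of HoxD.

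The 4 clusters differed widely in how much of their window was marked. H4K5ac covered 66.0% of the HoxC window, 49.0% of HoxA, 40.4% of HoxB and 15.9% of HoxD in undifferentiated cells, against 12.9% of the chromosomes. In differentiated cells it covered 46.5% of HoxA, 40.7% of HoxC, 29.9% of HoxB and 9.63% of HoxD (10.7% of the chromosomes). H3K4me1 covered 69.2% of HoxC in undifferentiated and 53.1% in differentiated cells, and 7.86% and 19.3% of HoxD. H3K9ac covered 33.5% of HoxC and 0.959% of HoxD in undifferentiated cells, with 24.9% and 4.09% in differentiated cells. HoxC was thus the most covered window for these marks and HoxD the least in undifferentiated cells, and for H4K5ac HoxA was the most covered in differentiated cells.

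**Figure D3:**
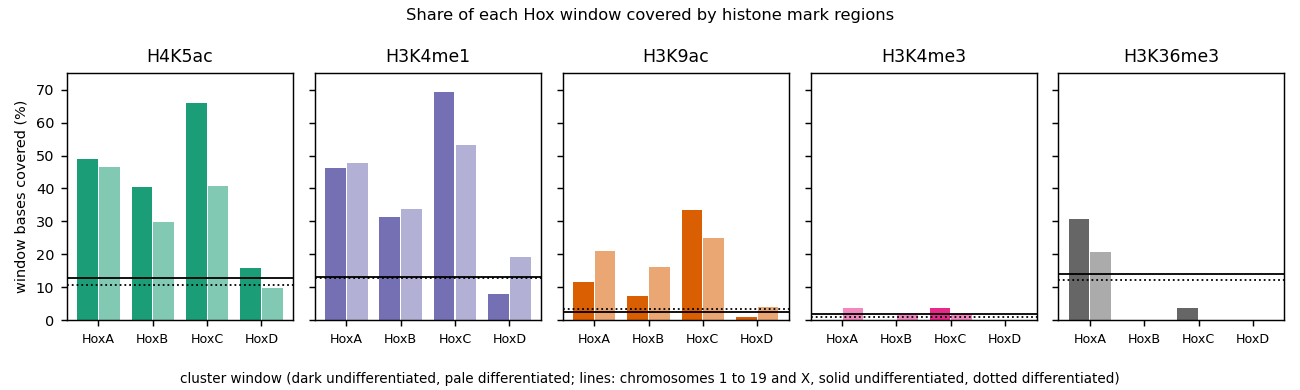
Bars give the share of each cluster's window, in percent of its bases, that lies inside regions of a mark (dark, undifferentiated; pale, differentiated); horizontal lines give the same share over chromosomes 1 to 19 and X. H3K36me3 bars stand at HoxA in both states and at HoxC in undifferentiated cells alone.

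Over the 4 windows together, the length covered by H4K5ac in differentiated cells was 0.737 times that in undifferentiated cells (281 against 382 kb), where over the chromosomes it was 0.834 times. For H3K9ac the windows gave 1.26 times (148 against 117 kb) and the chromosomes 1.32 times, and for H3K4me1 0.993 times (339 against 342 kb) and 0.990 times, so that both lay near the background. H3K36me3 covered 0.595 times as much of the windows (41.1 against 69.2 kb) and 0.877 times as much of the chromosomes. H3K4me3 covered 2.00 times as much of the windows (15.7 against 7.82 kb) and 0.433 times as much of the chromosomes, with 6 regions and 1 region behind the windows' values. For H3K9ac this ratio differed by cluster: 2.21 times at HoxB, 1.82 times at HoxA and 4.26 times at HoxD, yet 0.745 times at HoxC. The low base at HoxD, 1.89 kb in 1 region in undifferentiated cells, stands behind that ratio. H3K4me1 covered 2.45 times as much of HoxD in differentiated cells (from a base of 15.5 kb) and 0.766 times as much of HoxC. Lists with different cut-offs or depth also differ in covered length, and the part of this in the ratios was not tested.

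HoxC stood out in undifferentiated cells for long unbroken regions. A single H3K9ac region of 38.5 kb (chr15:102808324-102846820) ran over the starts of Hoxc5, Hoxc6 and Hoxc8 and was the 8th longest of 17189 regions in its list. In differentiated cells that stretch held 4 separate regions, the longest of 13.8 kb (rank 392 of 22868), with the start of Hoxc8 1050 bp outside the nearest. H3K4me1 ran for 65.6 kb over the starts of Hoxc4, Hoxc5, Hoxc6, Hoxc8 and Hoxc9 (rank 113 of 50823), against 39.1 kb over Hoxc5, Hoxc6 and Hoxc8 in differentiated cells (rank 507 of 53858). H4K5ac formed 2 such blocks in undifferentiated cells, 62.9 kb over 6 starts from Hoxc10 to Hoxc4 (rank 379 of 41779) and 52.4 kb over Hoxc13 and Hoxc12 (rank 555). After differentiation the longest H4K5ac region of the HoxC window measured 20.4 kb and held the starts of Hoxc5 and Hoxc6. Towards the group 1 side of HoxA and HoxB, H4K5ac formed long blocks in both states: 33.5 kb over and beyond Hoxa2 in undifferentiated and 34.2 kb in differentiated cells, and 21.0 kb and 19.6 kb in the flank beyond Hoxb1, a stretch that holds 3 of the factor loci and no Hox start.

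Counted by gene, a mark was taken to be over a start when a region held the first base of any annotated transcript of the gene. H4K5ac was over a start of 24 of the 38 Hox genes in undifferentiated cells (53.6% of all genes) and 17 in differentiated cells (53.4%), that is 63.2% and 44.7% of the Hox genes. H3K4me1 was over 19 and 20 of them (52.9% and 55.6% of all genes). H3K9ac was over 11 and 12 (49.7% and 51.5%), 28.9% and 31.6% of the Hox genes. H3K4me3 was over none in undifferentiated and 5 in differentiated cells, against 35.1% and 42.4% of all genes. H3K36me3 was over 8 and 6 (28.0% and 25.8%). Taken within 1 kb of a start instead, H4K5ac was near 29 and 22 Hox genes, 76.3% and 57.9% against 55.6% and 54.7% of all genes, so that in differentiated cells the Hox share was then above that of all genes and no longer below it. H3K4me1 likewise turned, near 24 and 27 Hox genes (63.2% and 71.1% against 56.9% and 58.8%). H3K9ac was near 16 and 18 (42.1% and 47.4% against 50.6% and 52.6%) and H3K4me3 near 1 and 5 (2.63% and 13.2% against 35.9% and 43.3%), both still below. With the most upstream start alone, H3K36me3 was over 5 and 3 Hox genes, 13.2% and 7.89% against 8.67% and 5.81% of all genes, so that its direction against all genes turned as well.

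**Figure D4:**
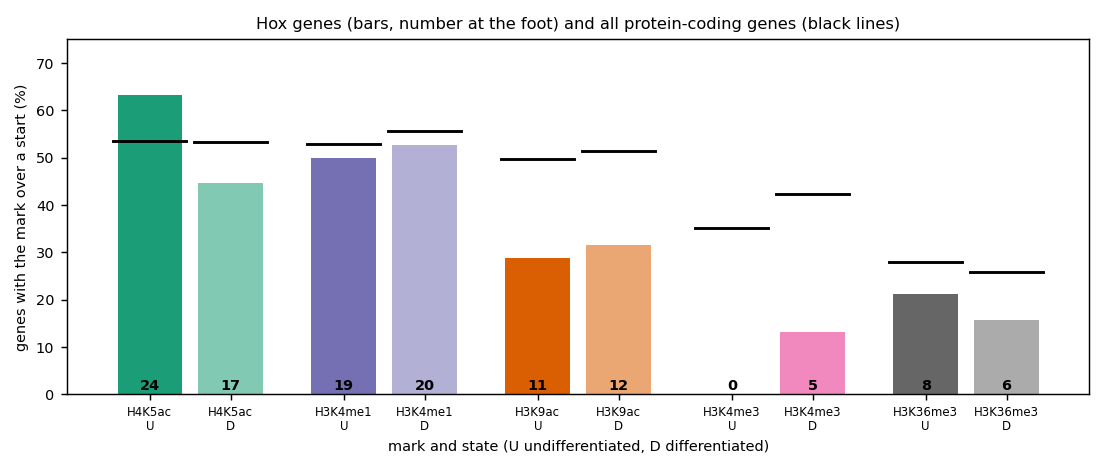
Bars give the share of the 38 Hox genes, in percent, with each mark over a start in undifferentiated (U) and differentiated (D) cells, with the number of genes at the foot; black lines give the share of all 22208 protein-coding genes. The H4K5ac bar stands above its line in undifferentiated cells (24 genes) and below it in differentiated cells (17 genes), and the H3K9ac, H3K4me3 and H3K36me3 bars stand below theirs; for H4K5ac in differentiated cells, H3K4me1 and H3K36me3 the side of the line depends on the start rule.

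H3K4me3, the mark most typical of active starts, was missing from every Hox start in undifferentiated cells. At HoxA the nearest H3K4me3 region lay 253503 bp from Hoxa2 and 348887 bp from Hoxa13; at HoxB distances ran from 117059 bp (Hoxb13) to 288495 bp (Hoxb1). HoxC held the one region of that list in the 4 windows, 7.82 kb at chr15:102798660-102806478, which covers the space between the starts of Hoxc10 and Hoxc9, 1433 bp from the first and 392 bp from the second. In differentiated cells the mark was over starts of Hoxa3 and Hoxa6 (1 shared region of 3.41 kb), Hoxa10 (2.52 kb), Hoxb6 (3.98 kb) and Hoxc6 (1.88 kb). A region of 1.45 kb beyond Hoxa2 and one of 2.42 kb within Hoxc9 held no start. The region between the starts of Hoxc10 and Hoxc9, which lies partly within the Hoxc10 gene, was not called in differentiated cells. HoxD had no H3K4me3 region in either state. Genes with H3K4me3 in differentiated cells alone made up 8.67% of all genes and 13.2% (5 of 38) of the Hox genes; genes with it in undifferentiated cells alone were 1.33% of all genes and 0 of the 38. The 2 lists differ in kind: 6983 regions with a median of 5256 bp in undifferentiated cells and 8994 with a median of 2225 bp in differentiated cells, and the part of this in the counts was not tested.

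Starts with H3K9ac mostly had H3K4me3 as well over all genes, and mostly did not among the Hox genes. Over all genes, H3K9ac stood with H3K4me3 over a start in 34.9% in undifferentiated and 42.4% in differentiated cells, and without it in 14.8% and 9.14%. All 11 Hox genes with H3K9ac in undifferentiated cells lacked H3K4me3, and so did 7 of the 12 in differentiated cells. Those 7 were Hoxa2, which patterns the hyoid arch, Hoxa7, Hoxb7, Hoxb9, Hoxc5, Hoxc13, needed for hair formation, and Hoxd3, which shapes the upper neck vertebrae. A further 14 Hox genes in undifferentiated and 9 in differentiated cells had H4K5ac or H3K4me1 without H3K9ac, a combination seen in 7.32% and 6.52% of all genes.

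H3K9ac was over a start of the same 10 genes in both states (26.3% of the Hox genes; 49.5% of all genes): Hoxa2, Hoxa3, Hoxa6, Hoxa7, Hoxa10, Hoxb6, Hoxb7, Hoxc5, Hoxc6 and Hoxc13. Hoxc8, which acts in the thoracic skeleton, had it in undifferentiated cells alone (0.270% of all genes did). Hoxb9, active in the rib cage, and Hoxd3 had it in differentiated cells alone (2.09% of all genes). At Hoxb9 the nearest H3K9ac region was 11755 bp away in undifferentiated cells and a 9.40 kb region covered the start in differentiated cells. The Hoxd3 call rests on a single 1.94 kb region over one of its 6 annotated starts. Hoxa9 missed by little, with H3K9ac 654 bp away in undifferentiated and 129 bp in differentiated cells, as did Hoxb3 (214 and 46 bp), Hoxb8 (553 and 243 bp) and Hoxc12 (258 and 379 bp).

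H4K5ac was over a start of 7 genes in undifferentiated cells alone and of none in differentiated cells alone; over all genes these 2 classes held 1.79% and 1.61%. The 7 were Hoxb4, known for expanding blood stem cells, Hoxb7, Hoxb8, Hoxc9, Hoxc10, Hoxd4 and Hoxd11, a gene of the forearm. Their distance to the nearest H4K5ac region in differentiated cells was 2318 bp for Hoxb4, 1542 bp for Hoxb7, 1744 bp for Hoxb8, 516 bp for Hoxc9, 1183 bp for Hoxc10, 4237 bp for Hoxd4 and 136 bp for Hoxd11. So the mark's border lay within 5 kb of all 7, and for Hoxd11 almost at the start. In undifferentiated cells an H4K5ac region of 36045 bp ran over Hoxb9, Hoxb8 and Hoxb7; in differentiated cells its counterpart measured 22974 bp and held Hoxb9 alone. H3K4me1 was over a start of Hoxc9 and Hoxc11 in undifferentiated cells alone (1.62% of all genes) and of Hoxb8, Hoxd3 and Hoxd4 in differentiated cells alone (4.32%).

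Within the windows, all 6 H3K36me3 regions of differentiated cells lay in HoxA, as did 4 of the 6 of undifferentiated cells, the other 2 lying in HoxC. A region of 43.0 kb (chr6:52117430-52160444) in undifferentiated cells ran over starts of Hoxa3, Hoxa4, Hoxa5 and Hoxa6 and was long for its list (rank 2386 of 17490, with a list median of 11122 bp). In differentiated cells the longest region there was 21.3 kb, over Hoxa4, Hoxa5 and Hoxa6, with 4 shorter ones between it and the window's end beyond Hoxa2. Hoxa4 and Hoxa5, the latter a gene of lung and neck vertebrae, were covered over 100.0% of their length in both states and had none of the other 4 marks over a start. Hoxa3, needed for thymus and parathyroid, was covered over 90.3% in undifferentiated and 66.7% in differentiated cells, Hoxa2 over 100.0% and 71.4%, Hoxa6 over 84.6% and 87.9%. Further along, Hoxa9 was covered over 50.3% and 29.6% and Hoxa10 over 63.7% and 30.1%, whereas Hoxa7, between Hoxa6 and Hoxa9, was not covered. Regions carry no strand, so in the stretch where the long Hoxa3 transcript, Hoxa4, Hoxa5 and Hoxa6 overlap the mark cannot be given to one of them.

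At least 50% of the gene was covered by H3K36me3 for 7 Hox genes in undifferentiated cells (41.4% of all genes) and 5 in differentiated cells (39.3%), and any base for 8 (50.8%) and 7 (49.4%). All were HoxA genes except Hoxc9, covered over 32.5% in undifferentiated cells and not at all in differentiated cells. Over its start the mark was called in undifferentiated cells alone for Hoxa2 and Hoxc9 (3.09% of all genes) and in differentiated cells alone for no Hox gene (0.874%). HoxB and HoxD had no H3K36me3 region in their windows in either state: the nearest one lay at least 118786 bp from any HoxB start in differentiated cells and 65316 bp from any HoxD start in undifferentiated cells.

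**Figure D5:**
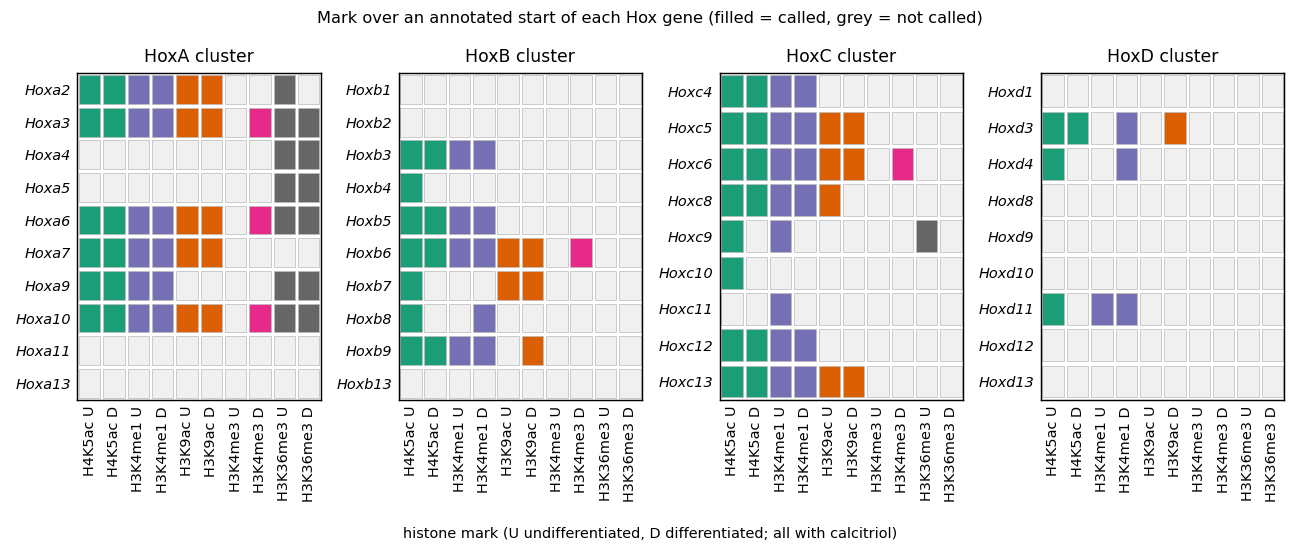
Rows are the 38 Hox genes by cluster and paralog group, columns the 5 marks in undifferentiated (U) and differentiated (D) cells with calcitriol; a filled cell means that a region holds an annotated start. The rows of Hoxa11, Hoxa13, Hoxb1, Hoxb2, Hoxb13, Hoxd1, Hoxd8, Hoxd9, Hoxd10, Hoxd12 and Hoxd13 are empty in both states.

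None of the 5 marks was over a start of 11 Hox genes in undifferentiated cells (40.9% of all genes) and of 15 in differentiated cells (40.1%). The 11 were unmarked in both states: Hoxa11 and Hoxa13, which pattern forearm and digits, Hoxb1 and Hoxb2 of the hindbrain, Hoxb13 of the tail and prostate, and Hoxd1, Hoxd8, Hoxd9, Hoxd10, Hoxd12 and Hoxd13 of HoxD. Hoxb4, Hoxc9, Hoxc10 and Hoxc11 joined them in differentiated cells. How bare these genes were varied. Hoxb13 had no region of the 5 marks within 44893 bp of its start in undifferentiated cells, and Hoxb1 none within 14800 bp. By contrast Hoxb2 had H4K5ac at 680 and 708 bp, Hoxd8 at 638 and 358 bp, and Hoxd12 at 969 and 1475 bp. Hoxa13 had H4K5ac 1696 bp away in undifferentiated and 9084 bp away in differentiated cells.

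HoxD held the fewest genes with H4K5ac, with H3K4me1 and with H3K9ac over a start in each state. At HoxA the same 6 genes, Hoxa2, Hoxa3, Hoxa6, Hoxa7, Hoxa9 and Hoxa10, had both H4K5ac and H3K4me1 over a start in both states, and 5 of them H3K9ac. Over the 4 clusters 18 genes had that pair of marks in undifferentiated cells (49.9% of all genes) and 17 in differentiated cells (51.3%). Hoxa3 has 6 annotated starts, of which 5 were inside H4K5ac in each state and 3 then 5 inside H3K9ac. At HoxC H4K5ac was over 8 of 9 genes in undifferentiated and 6 in differentiated cells, with H3K9ac over 4 and 3. HoxB had H4K5ac over 7 and 4 of 10 genes, H3K9ac over 2 and 3, and Hoxb6 as its one gene with H3K4me3. HoxD had H4K5ac over 3 genes (Hoxd3, Hoxd4, Hoxd11) in undifferentiated and 1 (Hoxd3) in differentiated cells. In all, 17 of the 38 genes had at least 1 mark over a start in 1 state and not in the other, against 21.7% of all genes; 4 were in HoxA, 5 in HoxB, 5 in HoxC and 3 in HoxD.

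By paralog group, group 6 was the one in which every listed gene had 3 marks in both states. All 3 genes of group 6, Hoxa6, Hoxb6 and Hoxc6, had H4K5ac, H3K4me1 and H3K9ac over a start in both states, and H3K4me3 in differentiated cells. Neither listed gene of group 1, Hoxb1 and Hoxd1, had any mark. In groups 9 to 13 (16 genes), H3K9ac was over 2 genes in undifferentiated and 3 in differentiated cells, in groups 4 to 8 (15 genes) over 7 and 6, and in groups 1 to 3 (7 genes) over 2 and 3. Of the 4 genes of group 13, which shape the limb tips and the hind end, Hoxc13 alone was marked, with H4K5ac, H3K4me1 and H3K9ac in both states. The 4 genes of group 4 had no H3K9ac over a start in either state, although Hoxc4 had H4K5ac and H3K4me1 in both.

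H3K9ac and H3K4me3 were over a larger share of the genes for chromatin regulators of Hox clusters than of the Hox genes. Of 15 genes for Polycomb, trithorax and related chromatin proteins, all had H3K9ac in both states and 14 H3K4me3, Cbx7 being the exception. Among all genes, H3K9ac was over a start of 49.7% in undifferentiated and 51.5% in differentiated cells. H3K4me3 was over 35.1% and 42.4%. Among 17 other homeobox genes of the skeleton, H3K9ac was over 12 and 14 and H3K4me3 over 10 and 11, with Msx1, Dlx1, Dlx2 and Dlx5 among those with both marks in both states. The 6 ParaHox genes, the closest relatives of the Hox clusters outside them, had no mark over a start in either state. Among all genes, 40.9% had none of the 5 marks in undifferentiated and 40.1% in differentiated cells. Of 11 neighbours of the clusters, Evx1 and Evx2, homeobox genes beside Hoxa13 and Hoxd13, and Skap1 had no mark over a start in either state, whereas Hibadh, Mtx2 and Lnp had all of H4K5ac, H3K9ac, H3K4me1, H3K4me3 and H3K36me3 in both states.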

How the data were processed

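Regions came from 22 deposited lists, 1 for each antibody, state and treatment. The submitters' processing notes name Bowtie, HOMER and build mm9, with no version or threshold. Replicate cultures were made, per the series' design text, and region names count merged peaks; each list was taken for an overlap of replicates, none of which has its own list. The score the authors deposited was 0 for every factor site and varied among histone regions; what it measures is not stated in the labels, and it entered 1 alternative alone, in which the bottom 25% of each histone list was dropped. Sample labels name H4K5ac where the protocol text writes H3K5Ac; the labels were followed. The lists hold no counts, so depth is unknown.

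Regions of chromosomes 1 to 19 and X were used (360258; 96 others left out) with the mm9 sequence (NCBIM37) and GENCODE vM1, genes being merged by chromosome and symbol. All regions ended within their chromosome. Lists were compared by overlap of at least 1 bp, covered bases and distance to annotated starts. Python 3.11.15, scipy 1.17.1, numpy 2.4.6 and matplotlib 3.10.9 were used, and the overlap and motif code was tested on simulated data. All 38 listed Hox genes are accounted for; of the other lists up to 4 genes are named in list order, with exceptions named where few. Prac and Kmt2a were not matched by symbol, the latter being present as Mll1. Alternatives were another window, start rule, distance, score limit, overlap or mismatch number. A list of partner genes is not reported here. The members and lists were chosen with earlier results of these data known.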

Additional observations from a re-analysis of the deposited data

How the results depend on the processing

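Of 96 alternative values, 60 stayed and 36 moved. A count stayed when it was within 1.5 times the reported count. Every covered share that changed at all was counted as moved, for example H4K5ac in undifferentiated cells, from 43.1% to 41.5% without the lowest scores. Within 1 kb of a start, H3K4me3 was near 1 Hox gene in undifferentiated cells, Hoxc9, against 0 over a start. With the most upstream start of each gene alone, H3K36me3 was over 5 Hox genes in undifferentiated and 3 in differentiated cells (8 and 6 with any start), a share above that of all genes and no longer below it. Without flanks, sites in undifferentiated cells numbered 3 for RXR with vehicle, 3 for RXR with calcitriol, 2 for C/EBPβ and 3 for RUNX2, and in differentiated cells 1 for RXR with vehicle, 1 for C/EBPβ and 2 for RUNX2. With 100 kb flanks C/EBPβ had 13 and 11 sites. Covered shares without flanks were, for H4K5ac, H3K9ac, H3K4me1, H3K4me3 and H3K36me3 in that order, 55.6%, 21.9%, 46.5%, 1.61% and 13.3% in undifferentiated and 43.2%, 25.8%, 48.6%, 2.93% and 8.19% in differentiated cells. Without the lowest scores, the undifferentiated shares of H4K5ac, H3K9ac, H3K4me1 and H3K36me3 were 41.5%, 11.5%, 36.7% and 6.56%, and the differentiated shares of all 5 marks, in the order above, 28.2%, 14.2%, 35.8%, 1.32% and 3.06%. Requiring about 50% of a site to overlap left 1 RUNX2 site shared between states (2 at 1 bp). Allowing no mismatch left 0 DR3 matches at the sites of VDR and of RXR in every list where 1 had been found. No paired analysis was possible because each group is 1 list and its title carries no replicate number. With depth unknown, a region that was not called may still be marked.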
